A study of Homo sapiens with 36 samples.

Results

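The antigen presentation genes of LNCaP cells are 9 of the 60676 genes in the deposited count table, each found here by its gene symbol. The class I members were HLA-B, HLA-C, B2M, TAP1 and TAP2 (5 genes), and the class II members were CIITA, CD74, HLA-DRA and HLA-DMB (4 genes). LNCaP is a human prostate cancer cell line of luminal type that responds to androgen. Its cultures received the vehicle DMSO, the antiandrogen enzalutamide at 3 µM, the PARP inhibitor olaparib at 3 µM, or the combination of both drugs, and RNA was taken after 8, 24 or 72 h. Each of the 12 groups had 3 libraries of this 1 cell line, grown in medium with fetal bovine serum. The labels do not say how the replicates of a group were grown, so p-values measure the spread between these libraries, which may be in part technical.

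MHC class I molecules are found on most nucleated cells. A heavy chain, such as that of HLA-B or HLA-C, pairs with beta-2 microglobulin, the product of B2M, and is loaded with peptides that the transporter made of TAP1 and TAP2 pumps from the cytosol into the endoplasmic reticulum. MHC class II molecules are mostly made by professional antigen-presenting cells and can be induced elsewhere by interferon gamma. CIITA is the master coactivator of class II genes, CD74 is the invariant chain that guards the class II groove, HLA-DRA is the alpha chain of HLA-DR, and HLA-DMB is a chain of HLA-DM, which exchanges the peptide in the groove.

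RefSeq promoter windows (GRCh38.p14) were matched by symbol for 7 of the 9 members, in 8 windows, since TAP1 has 2. CIITA and HLA-DRA had none in the table used. The 250 bases before the start are shown for 4 members, because they include the members that moved in opposite directions with olaparib and the class II member with the most counts. The windows lie at chr6:31357180-31357429 (HLA-B, minus strand), chr15:44711267-44711516 (B2M, plus strand), chr6:32853705-32853954 (TAP1, minus strand) and chr6:32941029-32941278 (HLA-DMB, minus strand). Capitals mark matches to any of the motifs searched, on either strand.
HLA-B: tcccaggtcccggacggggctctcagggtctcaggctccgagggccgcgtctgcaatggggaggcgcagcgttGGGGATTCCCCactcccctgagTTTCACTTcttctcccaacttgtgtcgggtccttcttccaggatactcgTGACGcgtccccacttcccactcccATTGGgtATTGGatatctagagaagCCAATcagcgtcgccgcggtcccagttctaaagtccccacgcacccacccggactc
B2M: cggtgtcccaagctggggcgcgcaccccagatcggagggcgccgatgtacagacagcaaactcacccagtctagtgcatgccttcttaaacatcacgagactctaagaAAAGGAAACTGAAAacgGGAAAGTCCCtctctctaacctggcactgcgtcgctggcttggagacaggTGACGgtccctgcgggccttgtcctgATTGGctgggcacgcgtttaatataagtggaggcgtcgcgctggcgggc
TAP1: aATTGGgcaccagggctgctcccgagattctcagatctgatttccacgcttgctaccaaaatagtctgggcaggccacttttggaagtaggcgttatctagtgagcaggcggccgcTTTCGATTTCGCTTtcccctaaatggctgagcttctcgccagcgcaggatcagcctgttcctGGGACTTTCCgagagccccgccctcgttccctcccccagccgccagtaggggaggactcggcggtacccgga
HLA-DMB: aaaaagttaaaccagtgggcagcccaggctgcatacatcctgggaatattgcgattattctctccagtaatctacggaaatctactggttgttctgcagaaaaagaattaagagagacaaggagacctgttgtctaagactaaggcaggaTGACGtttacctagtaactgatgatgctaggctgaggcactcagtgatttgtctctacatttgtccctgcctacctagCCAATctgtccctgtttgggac

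The motifs were the NF-Y core CCAAT, found in 33% of 27305 RefSeq promoters of the same length, the cyclic AMP response element core TGACG (21.7%), the interferon regulatory factor core AANNGAAA (20.6%), the NF-kB consensus by its usual degenerate form (5.05%) and the androgen response element palindrome (0.330%). Both strands were searched, and matches of the same motif may overlap, as the interferon cores do in B2M, TAP1 and TAP2 and the NF-kB matches in HLA-B. The interferon and NF-kB spellings are the last of several, widened after the member windows had been read. The first interferon spelling, a GAAA block on each side of 2 free bases (3.07% of promoters), matched B2M, TAP1 and TAP2 only, the second, GAANNGAAA (6.77%), matched HLA-B, HLA-C and TAP2 only, and the one used matched all 5 class I members. The first NF-kB spelling, narrower than the consensus (1.27%), matched B2M and TAP1, and the one used matched HLA-B, HLA-C, B2M, TAP1 and CD74. Since the letters were chosen with these windows in view, the number of members with a match is a description of the windows and supports nothing. HLA-DMB had the TGACG and CCAAT cores and no match to the other motifs. No member window matched the androgen response element letters.

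Sequencing gave 4.15 to 15.4 M counts per library, with a median of 9.63 M. All 9 luminal prostate markers, among them KLK3 and HOXB13, had a median of at least 1 CPM (counts scaled to the library total). All 13 markers of blood and professional antigen-presenting cells stayed below 1 CPM in every library, CD1C had no count, and PTPRC, the pan-leukocyte gene CD45, had 2 counts in all. One library, DMSO at 72 h replicate 1, stood apart by its share of mitochondrial counts. It had 4.66 M counts and 1.54% mitochondrial counts, against 5.56% and 3.97% mitochondrial in the other DMSO libraries of that hour. It lies in every comparison with DMSO at 72 h, and values without it are given where leaving it out ended a call or moved a value by more than 1.5 times.

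Class I members were far more abundant than class II members. On the length-corrected scale (RPKM, CPM divided by the exonic length in kilobases), median levels over the 36 libraries were 139 for HLA-C, 38.6 for B2M, 27.8 for HLA-B, 11.3 for TAP1 and 3.47 for TAP2. The class II members followed, with median RPKM levels of 1.22 for HLA-DMB, 0.401 for HLA-DRA, 0.0427 for CIITA and 0.0183 for CD74. The ranges of neighbours in this order did not overlap from HLA-C down to HLA-DMB, and they overlapped from HLA-DMB on. CD74 had 37 counts in all, 0 in 15 of 36 libraries, and did not pass the filter on low counts, so it was not tested. The other 8 members passed. HLA-DRA had only 6 libraries at or above the filter's limit of about 1 CPM, all of them enzalutamide or combination libraries at 72 h, so it entered the test through the groups in which it was high. A test on genes kept by that filter cannot support its rise, and the p-values given for its rises below come from the fit with no filter on low counts (35415 genes), which HLA-DRA entered whatever its levels were.

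HLA levels carry a limit of their own. HLA genes are polymorphic and have close paralogs, so reads may have been assigned unevenly among them. The HLA-B gene model spans chr6:31269491-31357188 and shares 35 exon bases with HLA-C. Counting ignored strand, and CIITA shares 11.7% of its exon bases with DEXI on the other strand, a gene with 1680 counts against 296 for CIITA, so CIITA counts may include or have lost DEXI reads. CD74 shares 5.61% of its exon bases with TCOF1, which had 40596 counts.

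HLA-DRA was the class II member that changed, and it did so in the 72 h cultures that had received enzalutamide, alone or combined. DMSO cultures at 72 h had HLA-DRA levels of 0.435, 0.682 and 0.132 CPM (scaled by the trimmed mean of M-values, TMM). Enzalutamide cultures at that hour had 2.62, 1.96 and 2.39 CPM. Combination cultures had 4.97, 2.72 and 2.73 CPM. All 6 drug libraries lay above the 3 DMSO libraries, and the highest value came from 1 combination culture. The summed counts behind these levels were 12 in DMSO (95% Poisson interval 6.2 to 21), 70 with enzalutamide (54.6 to 88.4) and 78 with the combination (61.7 to 97.3), intervals that cover counting error only.

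**Figure D1:**
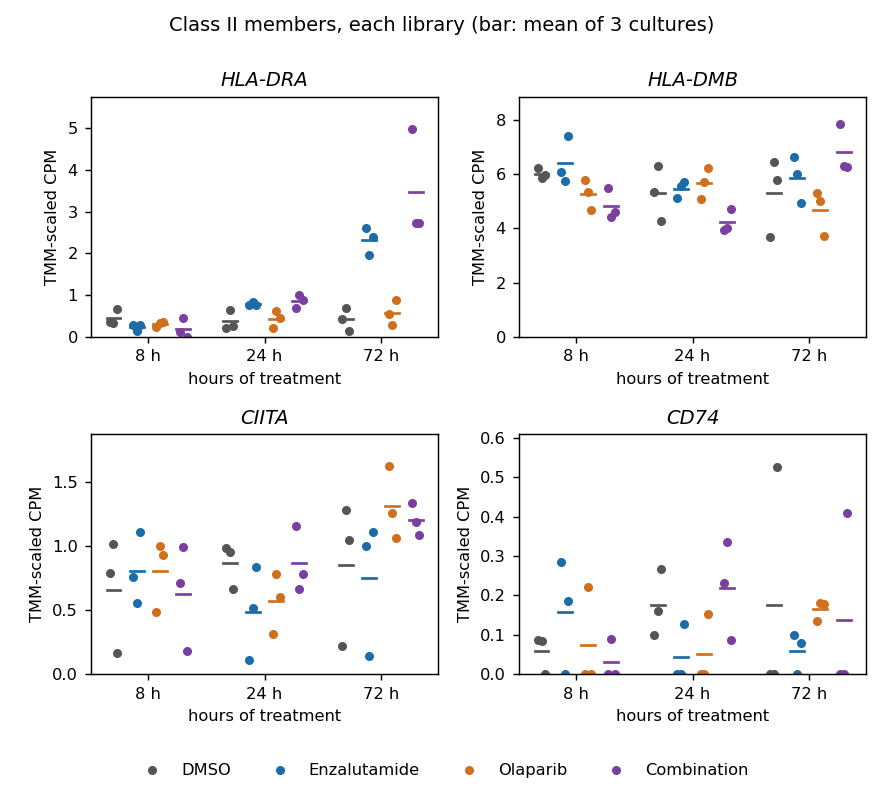
Levels of the 4 class II members in TMM-scaled CPM (vertical axis, from 0) at 8, 24 and 72 h of treatment, each point 1 library, coloured by treatment, each bar the mean of 3 cultures. HLA-DRA lies between 1.96 and 4.97 CPM in the enzalutamide and combination cultures at 72 h and at or below 1.00 CPM in every other library, while CD74 stays at or below 0.527 CPM throughout.

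The log2 fold changes of HLA-DRA were 2.30 ± 0.42 (standard error) with enzalutamide and 2.78 ± 0.40 with the combination. In the unfiltered edgeR quasi-likelihood fit they were 2.31 (adjusted p = 4.2e-06) and 2.80 (adjusted p = 1.3e-09). With olaparib alone the levels were 0.543, 0.270 and 0.887 CPM, overlapping DMSO, with a log2 fold change of 0.13 (95% interval -1.02 to 1.27, adjusted p = 0.93), an interval too wide to show that the levels were alike. The combination exceeded olaparib by 2.66, with or without the filter (adjusted p = 8.0e-10 without it). Against enzalutamide alone the combination had a log2 difference of 0.48 ± 0.29 (95% interval -0.11 to 1.07), which did not pass (adjusted p = 0.29). Without DMSO at 72 h replicate 1 the rises were 2.28 and 2.76. Within single lanes, the differences of log2(CPM + 0.5) ranged from 1.29 to 2.30 for enzalutamide and from 1.45 to 2.55 for the combination, on a scale that understates the change of a gene this low and is not that of the fitted values. In bulk RNA, more cells with HLA-DRA and more HLA-DRA per cell cannot be told apart.

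At 24 h the direction was already present in the levels but not called. Enzalutamide cultures had HLA-DRA at 0.764, 0.841 and 0.771 CPM and combination cultures at 0.696, 1.00 and 0.872 CPM, against 0.197, 0.638 and 0.268 CPM in DMSO. The groups did not overlap, and the log2 fold changes were 0.98 ± 0.48 (adjusted p = 0.16) and 1.07 ± 0.51 (adjusted p = 0.14). At 8 h all groups lay between 0 and 0.662 CPM. In the unfiltered fit the effect at 72 h exceeded that at 8 h by 3.02 for enzalutamide (adjusted p = 0.011) and 3.62 for the combination (adjusted p = 6.3e-04). DESeq2 gave 3.14 ± 0.98 for enzalutamide, with an unadjusted p of 0.0013 and no adjusted p, and 3.82 ± 1.01 for the combination (adjusted p = 0.0018).

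Summed levels of the blood-cell markers with enzalutamide and with the combination overlapped those of DMSO at 72 h. The olaparib libraries all lay above the DMSO ones. They were 0.652 to 0.682 CPM in DMSO at 72 h, 0.557 to 0.839 CPM with enzalutamide, 0.719 to 1.06 CPM with olaparib and 0.425 to 0.956 CPM with the combination, over 13 markers.

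The other class II members gave no comparable change. HLA-DMB had 3.7, 6.44 and 5.79 CPM in DMSO at 72 h, 6.64, 6.01 and 4.93 CPM with enzalutamide, 5.30, 5.03 and 3.73 CPM with olaparib, and 7.85, 6.29 and 6.28 CPM with the combination. It was called only as higher in the combination than in olaparib (0.46 ± 0.17, adjusted p = 0.035), a call that was lost in 6 of 13 alternatives. CIITA passed no test. Its levels at 72 h were 0.217, 1.29 and 1.05 CPM in DMSO, 1.01, 0.140 and 1.11 CPM with enzalutamide, 1.63, 1.26 and 1.06 CPM with olaparib, and 1.34, 1.19 and 1.09 CPM with the combination. These rest on 25 to 44 summed counts per group, and the 95% interval of the olaparib difference ran from -0.45 to 1.36 on the log2 scale. A difference in CIITA within such an interval was not detectable at this depth.

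The class I members moved by far smaller amounts and in different directions. TAP1 had 50.5, 48.2 and 42.3 CPM in DMSO at 72 h and 63.3, 62.0 and 64.6 CPM with olaparib. Enzalutamide gave 45.9, 43.9 and 47.3 CPM, and the combination gave 54.2, 54.2 and 51.6 CPM. The olaparib and combination libraries all lay above DMSO, and the enzalutamide libraries lay among the DMSO ones. TAP1 rose by 0.43 ± 0.07 on the log2 scale with olaparib (adjusted p = 3.9e-05), a call kept in all 13 alternatives. The rise with the combination, 0.19 ± 0.08 (adjusted p = 0.042), was lost in 6 of 13. TAP1 was lower in the combination than in olaparib, by -0.24 ± 0.07 (adjusted p = 0.0069).

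TAP2, the partner of TAP1 in the transporter, did not follow TAP1. DMSO libraries at 72 h had 19.1, 25.1 and 22.5 CPM, enzalutamide 17.1, 19.9 and 17.9, olaparib 23.9, 20.2 and 19.9, and the combination 16.6, 18.9 and 12.4. The combination libraries all lay below DMSO, while the enzalutamide and olaparib ranges overlapped it. TAP2 fell with the combination by 0.49 ± 0.12 on the log2 scale (adjusted p = 9.6e-04), a call lost in 1 of 13 alternatives, with only the libraries compared. With enzalutamide it fell by 0.33 ± 0.11 (adjusted p = 0.028), a call lost in 5 of 13. With olaparib its log2 fold change was -0.08 (95% interval -0.31 to 0.15), and it was lower in the combination than in olaparib by -0.41 ± 0.12 (adjusted p = 0.0054). The latter call was lost in 2 of 13 alternatives, without combination replicate 3 and without olaparib replicate 1, both at 72 h.

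B2M, the light chain shared by all class I molecules, rose with olaparib. DMSO libraries at 72 h had 246, 230 and 266 CPM, against 292, 283 and 318 CPM with olaparib and 319, 275 and 308 CPM with the combination. Both sets lay above all DMSO libraries. The enzalutamide libraries, at 232, 236 and 225 CPM, overlapped DMSO. The log2 fold changes were 0.27 ± 0.07 for olaparib (adjusted p = 0.0084, lost in 2 of 13 alternatives) and 0.28 ± 0.07 for the combination (adjusted p = 0.0019), and the combination exceeded enzalutamide by 0.38 ± 0.07 (adjusted p = 2.3e-04).

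The heavy chains were lower with olaparib, in calls that depended on single libraries and on the setting. HLA-C had 447, 349 and 365 CPM in DMSO at 72 h, 330, 312 and 334 CPM with enzalutamide, 306, 321 and 321 CPM with olaparib, and 326, 352 and 341 CPM with the combination. HLA-B had 103, 79.1 and 84.4 CPM in DMSO, 86.6, 82.8 and 76.4 CPM with enzalutamide, 73.1, 68.5 and 72.2 CPM with olaparib, and 84.4, 86.1 and 94.2 CPM with the combination. The first DMSO value of each gene is the highest of its group and comes from the library with few mitochondrial counts. HLA-C fell by 0.24 ± 0.08 on the log2 scale with enzalutamide (adjusted p = 0.023) and by 0.29 ± 0.08 with olaparib (adjusted p = 0.012), and HLA-B fell by 0.30 ± 0.09 with olaparib (adjusted p = 0.021). Without that library the 3 values were -0.13, -0.17 and -0.19, and none passed (adjusted p = 0.24, 0.14 and 0.17). Counting that library, the 3 calls were lost in 4, 3 and 4 of 13 alternatives. All 3 were lost with only the libraries compared. Each was also lost without 1 drug library: enzalutamide replicate 2, olaparib replicate 1 and olaparib replicate 2, all at 72 h. HLA-B was higher in the combination than in olaparib by 0.31 ± 0.09 (adjusted p = 0.0077), a comparison without DMSO that was kept in all 13 alternatives.

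**Figure D2:**
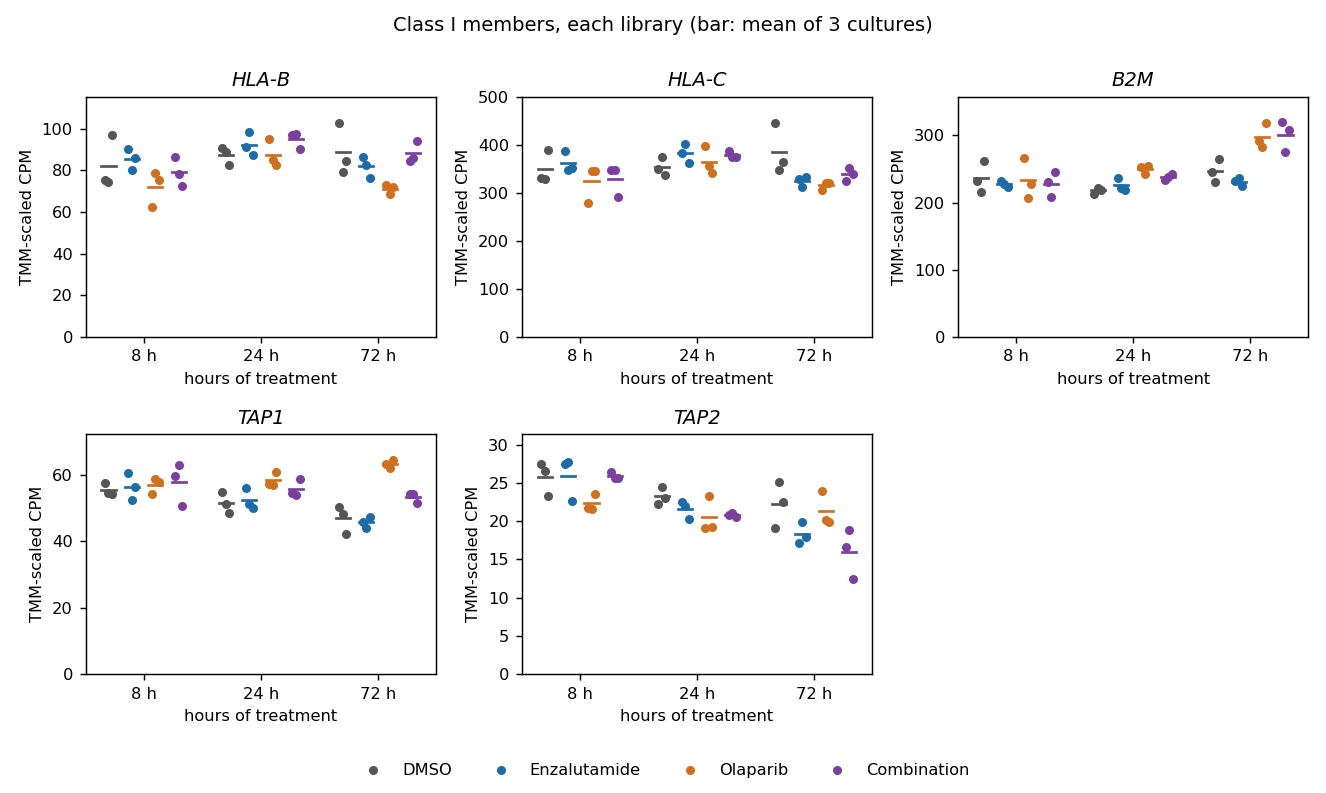
Levels of the 5 class I members in TMM-scaled CPM (vertical axes, from 0) at 8, 24 and 72 h of treatment, each point 1 library, coloured by treatment, each bar the mean of 3 cultures. At 72 h the olaparib libraries of TAP1 lie between 62.0 and 64.6 CPM, above all DMSO libraries, while those of HLA-B lie between 68.5 and 73.1 CPM, below them.

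Counted over members, 3 of the 8 tested were called with enzalutamide at 72 h (1 higher, 2 lower), where 27.2% of all 15744 genes tested were called (12.7% higher, 14.6% lower). For olaparib the count was 4 of 8 (2 higher, 2 lower) against 17.9% of all genes (8.22% higher, 9.69% lower). For the combination it was 4 of 8 (3 higher, 1 lower) against 42.5% (20% higher, 22.6% lower). At 72 h the combination differed from enzalutamide in 2 of 8 members (14.5% of all genes) and from olaparib in 5 of 8 (34.2%). These counts include HLA-DRA, which the filter kept for its high groups, leave out CD74, and are not set apart from the background by any test here.

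**Figure D3:**
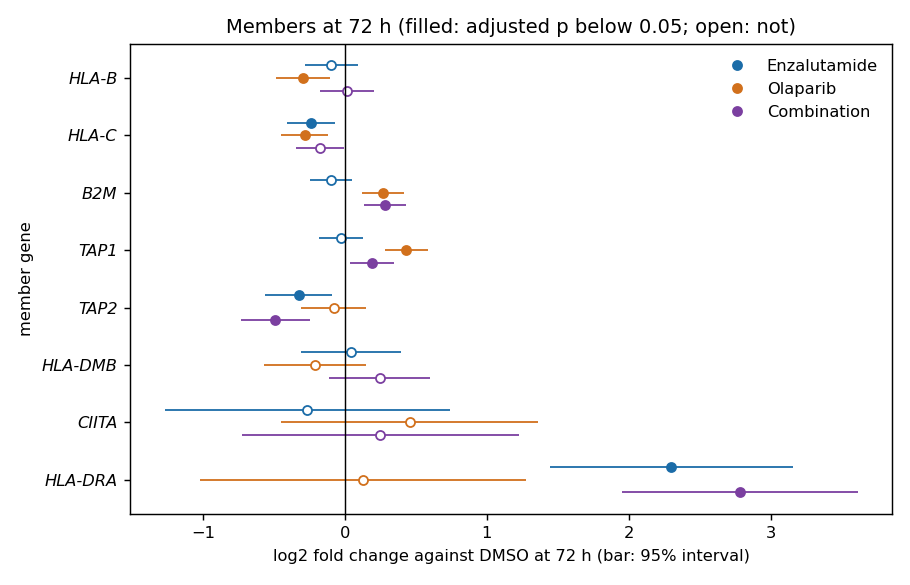
Log2 fold changes against DMSO at 72 h (horizontal axis) of the 8 tested members, by treatment, with 95% intervals; filled points passed an adjusted p of 0.05. HLA-DRA lies at 2.30 with enzalutamide and 2.78 with the combination, and all class I points lie between -0.49 and 0.43. All points are of the filtered fit, which kept HLA-DRA for its high groups, so its filled points support nothing.

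No member was called at 8 h or 24 h against DMSO in the main edgeR fit or by DESeq2. DESeq2 gave no adjusted p for HLA-DRA and CIITA with olaparib at both hours and with the combination at 8 h, nor for HLA-DMB with olaparib at 8 h. Of all genes, enzalutamide changed 3.02% at 8 h and 18.8% at 24 h, olaparib 1.32% and 1.12%, and the combination 5.98% and 21.6%. At an unadjusted p below 0.05, edgeR gave 0 members at 8 h and, at 24 h, HLA-DRA with enzalutamide, HLA-DRA with the combination, and TAP1 and B2M with olaparib. The combination differed from a single drug in 0 of 8 members at 8 h and 24 h by both tools (DESeq2 gave HLA-DRA and CIITA no adjusted p except against enzalutamide at 8 h), with HLA-DMB at an unadjusted p below 0.05 against enzalutamide at both hours and against olaparib at 24 h. The shares of all genes called were 0.654% and 1.92% against enzalutamide and 2.19% and 13.6% against olaparib.

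In DMSO cultures over time, 0 of 8 members were called by edgeR or DESeq2 (0.648% of genes at 24 h and 2.81% at 72 h against 8 h), and TAP1 alone had an unadjusted p below 0.05, with a log2 difference of -0.25 ± 0.07 at 72 h (adjusted p = 0.055). Departure from additivity, the combination's log2 fold change minus those of enzalutamide and olaparib, was called for 0 of 8 members at any hour by edgeR, with 0%, 0% and 2.26% of all genes called at 8, 24 and 72 h. At 72 h, HLA-C, HLA-B and TAP1 had an unadjusted p below 0.05, and DESeq2 called HLA-B and HLA-C. The departures were 0.41 ± 0.13 for HLA-B (adjusted p = 0.091) and 0.35 ± 0.12 for HLA-C (adjusted p = 0.11), and without the DMSO library that stood apart they were 0.30 ± 0.12 and 0.24 ± 0.10 (adjusted p = 0.22 and 0.29).

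The change of an effect from 8 h to 72 h was called for HLA-DRA with enzalutamide (1 of 8 members, 10.2% of all genes), for TAP1 with olaparib (1 of 8, 9.71%), and for B2M, TAP2 and HLA-DRA with the combination (3 of 8, 22.9%). These counts are of the filtered fit, which kept HLA-DRA for its high groups, so its 2 calls in them support nothing. Its values from the unfiltered fit are given above.

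Set against each other as summed RPKM of the members of each class, class I exceeded class II by 127 to 173 times on average in 10 of the 12 groups. The ratio was 65.5 ± 6.43 (SD, n = 3) with enzalutamide at 72 h and 54.8 ± 13.8 with the combination at 72 h, against 163 ± 61.3 in DMSO at that hour. The DMSO libraries gave 229, 108 and 150, with a mean of 129 without replicate 1, and lay above all 6 drug libraries. On the log2 scale the group means were 6.03 ± 0.15, 5.74 ± 0.40 and 7.28 ± 0.54, the last 6.99 without that library. HLA-DRA made up 58.5% and 63.1% of the class II sum in the 2 drug groups and 21.5% in DMSO. With HLA-DRA left out, the log2 ratios were 7.30, 7.19 and 7.64, and the libraries of both drug groups overlapped those of DMSO. The ratio is a description and has no test, since its members were chosen with results known.

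**Figure D4:**
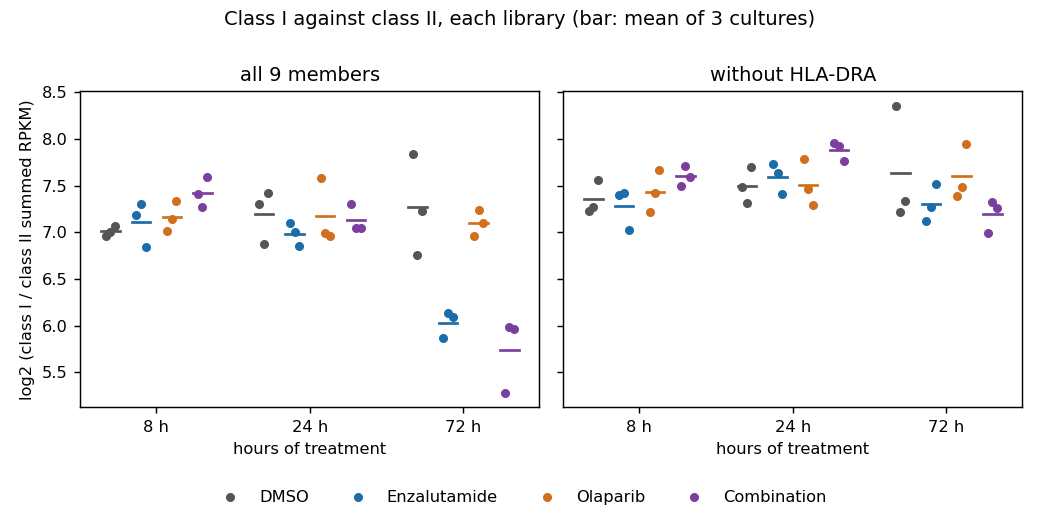
Log2 ratio of summed class I to summed class II RPKM (vertical axis, which does not start at 0) in each library at 8, 24 and 72 h, with all 9 members (left) and without HLA-DRA (right), each bar the mean of 3 cultures. With all members the enzalutamide and combination groups at 72 h average 6.03 and 5.74, and without HLA-DRA they average 7.30 and 7.19.

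Other class II genes at 72 h gave a mixed picture. The list of 13 class II chains and chaperones holds 3 of the members, and 4 of its other 10 genes were tested. With enzalutamide 1 of the 4 rose and 1 fell, and with the combination 1 rose and 1 fell, beside 27.2% and 42.5% of all genes called. With olaparib 0 of 4 were called by edgeR (2 at an unadjusted p below 0.05). HLA-DRB1, the beta chain partner of HLA-DRA, had 0.870, 0.606 and 0 CPM in DMSO, 1.81, 1.40 and 1.03 CPM with enzalutamide, and 1.15, 1.45 and 0.546 CPM with the combination. The enzalutamide libraries lay above DMSO and the combination libraries overlapped it. Like HLA-DRA, HLA-DRB1 reached the filter's limit only in libraries with enzalutamide, alone or combined, so its call with enzalutamide supports nothing. HLA-DQB1 rose with the combination from 22.9 ± 3.68 to 34.9 ± 7.04 CPM (0.58 ± 0.14, adjusted p = 8.6e-04). The libraries overlapped, at 38.3, 39.5 and 26.8 CPM against 20.7, 27.1 and 20.8 in DMSO. Its means were 29.1 CPM with enzalutamide and 30.0 with olaparib. HLA-DMA, which pairs with HLA-DMB, fell from a mean of 16 to one of 10.8 CPM with enzalutamide (-0.64 ± 0.14, adjusted p = 4.0e-04), and had 12.6 CPM with the combination and 20.7 with olaparib. HLA-DQA1 had 8 counts in all, so the HLA-DQ alpha chain was near 0 where its beta chain was not.

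Beside the members, HLA-E, a non-classical class I heavy chain, fell with olaparib at 72 h from 65.3 ± 6.32 to 51.2 ± 2.11 CPM (-0.33 ± 0.07, adjusted p = 3.6e-04). Its DMSO libraries had 72.6, 61.5 and 61.9 CPM, and without the first the fall was 0.27 ± 0.06 (adjusted p = 0.0040). HLA-E was also low with enzalutamide, at 53.8 CPM, and with the combination, at 56.5 CPM. Of the 3 class I chains tested outside the members, olaparib lowered 2, enzalutamide 1 and the combination 1 (17.9%, 27.2% and 42.5% of all genes called). Without DMSO at 72 h replicate 1 these were 1, 1 and 0 (12.1%, 23.3% and 38.5%). Of 7 genes of peptide loading and trimming other than TAP1 and TAP2, enzalutamide raised 3 and lowered 4, olaparib raised 2 and lowered 1, and the combination raised 3 and lowered 3, beside 27.2%, 17.9% and 42.5% of all genes called. Without DMSO at 72 h replicate 1 olaparib raised 1 and lowered 0 by edgeR (12.1% of all genes called). In that fit enzalutamide raised 3 and lowered 2 (23.3%), and the combination raised 3 and lowered 2 (38.5%). ERAP1, the aminopeptidase that trims peptides in the endoplasmic reticulum, rose with the combination from 18.8 to 32.9 CPM (0.80 ± 0.10, adjusted p = 3.7e-08), and TAPBP, the tapasin that bridges TAP and the heavy chain, from 138 to 201 CPM (0.53 ± 0.06, adjusted p = 9.3e-09). The single drugs had ERAP1 means of 29.7 CPM (enzalutamide) and 23.1 CPM (olaparib), and TAPBP means of 190 and 176 CPM. At 24 h ERAP1 already had 31.2 CPM with enzalutamide against 21.3 in DMSO. ERAP1 shares 3.76% of its exon bases with CAST.

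Among 14 transcription factors and regulators of MHC genes other than CIITA, the combination raised 5 and lowered 1 at 72 h, a share near the 42.5% of all genes called. IRF1, an interferon regulatory factor, rose from 5.07 ± 0.364 to 10.4 ± 0.933 CPM (1.00 ± 0.15, adjusted p = 1.1e-06), with 22.1% of its exon bases shared with IRF1-AS1. The single drugs had IRF1 means of 7.40 CPM (enzalutamide) and 6.65 CPM (olaparib). At 8 h IRF1 already had 9.28 CPM with enzalutamide against 5.92 in DMSO. EZH2, a histone methyltransferase subunit, fell with the combination at 72 h from 45.4 to 27.5 CPM (-0.71 ± 0.09, adjusted p = 1.4e-08). It had 40.7 CPM with enzalutamide and 33.9 with olaparib. NFKB1 rose from 56.7 to 76.2 CPM with olaparib (0.41 ± 0.06, adjusted p = 1.4e-05), and had 76.2 CPM with the combination and 59.7 with enzalutamide. NLRC5, the class I coactivator, was measured at 4.69 to 9.10 CPM over all libraries, with 72 h means of 6.20 CPM in DMSO, 6.16 with enzalutamide, 6.0 with olaparib and 6.16 with the combination. Of 22 interferon-stimulated genes, 13 were tested, and the combination raised 4 and lowered 2 at 72 h, again near the 42.5% of all genes, with IFIT3 rising by 0.98 ± 0.21 (adjusted p = 3.1e-04). IFIT3 means at 72 h were 2.05 CPM in DMSO, 2.55 with enzalutamide, 2.60 with olaparib and 4.09 with the combination. Without DMSO at 72 h replicate 1 the combination raised 4 of the 13 and lowered 1 (38.5% of all genes).

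Across the 12 group means of log2 CPM, the genes most like HLA-DRA were PLA2G2A, CLU and COLCA1 (Pearson r 0.97, 0.96 and 0.96). The genes most like TAP2 were ENPP1, CCNC and TSPAN13 (0.97, 0.96 and 0.94). Those most like TAP1 were PABPC1, TAB3 and TMEM184C (0.93, 0.92 and 0.92), and those most like B2M were PGM2, WASHC2A and NOL8 (0.94, 0.92 and 0.92). Among members, HLA-B and HLA-C had r = 0.86, TAP1 and TAP2 had r = 0.29, and TAP2 and HLA-DRA had r = -0.90. The 12 points share their libraries between genes, the groups at 1 hour share a control, and these values describe likeness over 12 points only.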

How the data were processed

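The values were raw counts per gene, which the authors made with featureCounts 2.0.0 on Ensembl release 99 (GRCh38), without strand and for fragments of 20 to 5000 bases, per the file headers. Gene lengths in the same deposited table, summed exon bases of the count models, were used for RPKM. The submitters' processing notes also name STAR, DESeq2 and hg38, without versions.

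All 36 libraries entered 1 edgeR 4.0.16 quasi-likelihood fit in R 4.3.3 (limma 3.58.1), with 12 group means, TMM scaling and filterByExpr (minimum count 10), which left 15744 genes. There were 23 contrasts, and calls are at 0.05 after Benjamini-Hochberg adjustment across the genes of a contrast. Standard errors of log2 fold changes follow from the F statistic, and levels are CPM after TMM scaling. Alternatives were RLE scaling, no filter, lane or replicate block, only the libraries compared, DESeq2 1.42.0, each library left out, single lanes, and, chosen after seeing the data, no lane 6, gene lists without the members, and list genes without DMSO at 72 h replicate 1. Differences within lanes are of log2(CPM + 0.5). The fit was tested on simulated data. Same-numbered libraries did not deviate together (median r 0.024), while libraries of the same lane had a median r of 0.093 against -0.046 for other lanes, and replicates differed by more than sampling noise (lowest chi-square per degree of freedom 1.39).

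The members and lists were chosen with earlier results of these data known. All members were named, with up to 4 called genes per list and contrast by size, and the 3 genes most like a member with a mean of at least 1 CPM. NLRC5, HLA-DQA1 and the overlap partners are named outside that rule. Promoter motifs were searched in Python 3.11.15 in 3 successive spellings for the interferon core and 2 for NF-kB, chosen after the windows had been read, and the earlier spellings are reported beside the last. Some genes of the fixed lists are not reported here.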

Additional observations from a re-analysis of the deposited data

Results flagged for a closer look

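The effect of a treatment differed between 8 h and 72 h for 5 pairs of member and treatment, by edgeR's test of the difference itself. HLA-DRA had log2 differences of 3.02 ± 0.80 with enzalutamide and 3.61 ± 0.82 with the combination, and since the count filter kept it for its high groups, its adjusted p values are those of the unfiltered fit (0.011 and 6.3e-04). For HLA-DRA with enzalutamide DESeq2 gave 3.14 and no adjusted p. TAP1 had 0.39 ± 0.10 with olaparib (adjusted p = 0.012). B2M had 0.33 ± 0.10 (adjusted p = 0.017) and TAP2 had -0.48 ± 0.16 (adjusted p = 0.026), both with the combination. Without lane 6, the values for HLA-DRA with enzalutamide, TAP2 and B2M were 2.65, -0.52 and 0.27 and no longer passed (adjusted p = 0.087, 0.056 and 0.053). The fit without lane 6 kept the filter on low counts, so its adjusted p for HLA-DRA cannot be set beside that of the unfiltered fit. Over all alternatives, the TAP2 call was lost in 6 of 19, the B2M call in 5 of 19 and the TAP1 call in 2 of 19.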

How the results depend on the processing

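The call of TAP1 with olaparib at 72 h was kept in every alternative run. HLA-DRA at 72 h was called in all of them too, but only the unfiltered fit is free of its selection by the filter. With only the libraries compared, the number of members called over 8, 24 and 72 h went from 3 to 1 for enzalutamide and from 4 to 2 for olaparib, and the changes of effect from 5 to 2. At 72 h HLA-C, HLA-B and B2M lost their olaparib calls and TAP1 kept its own. The other olaparib call left was therefore at 8 or 24 h, where the main fit had none. Of all genes, that setting called 72 of 14077 with olaparib at 8 h and 259 of 14379 at 24 h. Calls over all genes at 72 h fell too, from 4287 of 15744 to 1956 of 14253 for enzalutamide. For olaparib they fell from 2819 of 15744 to 639 of 14245. For the changes of effect they fell from 1608 to 673 with enzalutamide, 1528 to 427 with olaparib and 3604 to 2053 with the combination. Without lane 6 the changes of effect were also 2, and DMSO over time had 1 (TAP1), as it had with the lane block. Of all 16169 genes without lane 6, the changes of effect called were 1241 with enzalutamide, 1044 with olaparib and 3068 with the combination. DMSO at 72 h against 8 h had 282 genes called without lane 6 and 625 with the lane block, against 442 in the main fit. Departures from additivity had 2 (HLA-B and HLA-C) with no low-count filter and 2 with DESeq2. Of all genes at 72 h, 487 of 35415 and 431 of 8982 were called in these settings, against 356 of 15744 in the main fit. Leaving out 1 library gave 2 to 4 calls for olaparib, 0 to 2 for departures and 0 to 1 for DMSO over time, with the olaparib low reached without DMSO at 72 h replicate 1, and the TAP1 call without DMSO at 72 h replicate 2 or the combination at 8 h replicate 3. With the replicate block, enzalutamide kept 3 calls, olaparib 4, the combination 4, and the changes of effect had 6, and no call of a named result was lost.

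Uncalled values changed sign. Leaving out 1 library at 72 h, the log2 fold change with enzalutamide ranged from -0.18 to 0.0034 for HLA-B, -0.10 to 0.0058 for TAP1, -0.092 to 0.23 for HLA-DMB and -0.64 to 0.18 for CIITA. With olaparib it ranged from -0.26 to 1.01 for HLA-DRA and -0.18 to 0.035 for TAP2, and with the combination from -0.073 to 0.11 for HLA-B and -0.0037 to 0.70 for CIITA. Without lane 6, TAP1 and HLA-DMB with enzalutamide were at 0.029 and -0.11, HLA-DRA with olaparib at -0.16 and CIITA with the combination at -0.057. TAP2 with enzalutamide, a called fall, was at 0.052 within lane 6, as a difference of log2(CPM + 0.5). The cause was not tested. Depth limits CIITA, CD74 and HLA-DRA most, at 296, 37 and 286 counts in all.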
